A study of Mus musculus with 2 samples.

Results

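The 9 receptor genes described here encode the chains through which blood-forming cells read colony-stimulating factors, erythropoietin, interleukin-3 and the interleukin-6 family: Csf1r, Csf2ra, Csf2rb, Csf3r, Epor, Il3ra, Il6ra, Il6st and Lifr. They were taken by name, and every non-control probe whose transcript identifier belongs to one of them in the reference table was kept, which gave 14 probes for 9 of the 21360 genes named on the arrays. The cells were LSK cells, bone marrow (BM) cells that lack lineage surface antigens and carry Sca-1 and c-kit, from C57BL/6J mice that the labels give as female, while the study itself reports male mice. The control array held LSK cells of nondiabetic mice and the other held LSK cells of mice made diabetic with streptozotocin (STZ), a toxin of insulin-producing β cells, with 3 mice and 8.3 ng of total RNA given by the labels for each array. For these arrays, neither the age of the mice, the time after STZ nor an injection of the control mice is given in the sources used here. Control mice received citrate buffer in other experiments of the study. The methods describe Ficoll separation of BM cells, removal of dead cells and sorting by lineage panel, c-kit and Sca-1.

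Cytokine receptors of this kind have no enzyme of their own, except Csf1r, which is a receptor tyrosine kinase. For the others, the receptor complex binds a ligand outside the cell and activates Janus kinases bound to it. These kinases phosphorylate STAT proteins, which move to the nucleus. Ligand-binding alpha chains such as Il6ra, Il3ra and Csf2ra signal through a shared partner: gp130, the product of Il6st, for the interleukin-6 family, and the common beta chain, the product of Csf2rb, for interleukin-3, interleukin-5 and GM-CSF. Early progenitors carry several of these receptors at low levels before a lineage is chosen.

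Each condition has 1 array, so no difference below was tested, and none has a replicate check. Of 59305 non-control spots, 62.7% on the nondiabetic and 63.9% on the diabetic array were flagged by the scanner software as well above background, and 0 were saturated. Intensities are given before scaling. Ratios are diabetic over nondiabetic on the log2 scale, after each array's 75th percentile was subtracted. The ± beside a log2 ratio is the error that the software's own error model gives for the spot pair. Every receptor probe was printed once. Probes printed at least 5 times showed a median SD of the log2 ratio between their spots of 0.07 among the brightest, 0.13 among middle and 0.26 among the dimmest of 3 signal groups, which leaves out differences between mice, sorts and amplifications. The gate genes Kit and Ly6a were well above background on both arrays, with Kit at 4635 in nondiabetic and 4735 in diabetic mice. Of 8 genes of the gate and of early progenitors, 7 were well above background in nondiabetic and 8 in diabetic mice. The exception was Slamf1, at 5.29 and 28.7. Of these 8 genes, 6 had a log2 ratio or bound above 0 and 2 below, among them Procr at -0.59. Some genes of mature cells were well above background too, among them Itgam, which encodes the lineage antigen CD11b, at 34686 and 35189. The RNA is that of a whole sorted population, so fewer cells of a type and less RNA per cell cannot be told apart.

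All 9 receptor genes were well above background on both arrays by their brightest probe. Il6st was 4.12-fold lower in LSK cells of diabetic mice, and it was the only one of the 9 past 2-fold in either direction. Il6ra came next and stopped just short of that limit. The other 7 genes lay between -0.39 for Csf2ra and 0.27 for Csf2rb on the log2 scale. The counts, 1 of 9 lower and 0 of 9 higher, stand beside 10.1% of 15192 named genes at least 2-fold lower and 11.0% at least 2-fold higher on these arrays, so that the number of changed receptors is near the background. The median log2 ratio of the 9 genes was -0.34, against 0.02 over all named genes with a value. In all, 6 of 9 were below 0, against 48.8% of all genes.

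**Figure D1:**
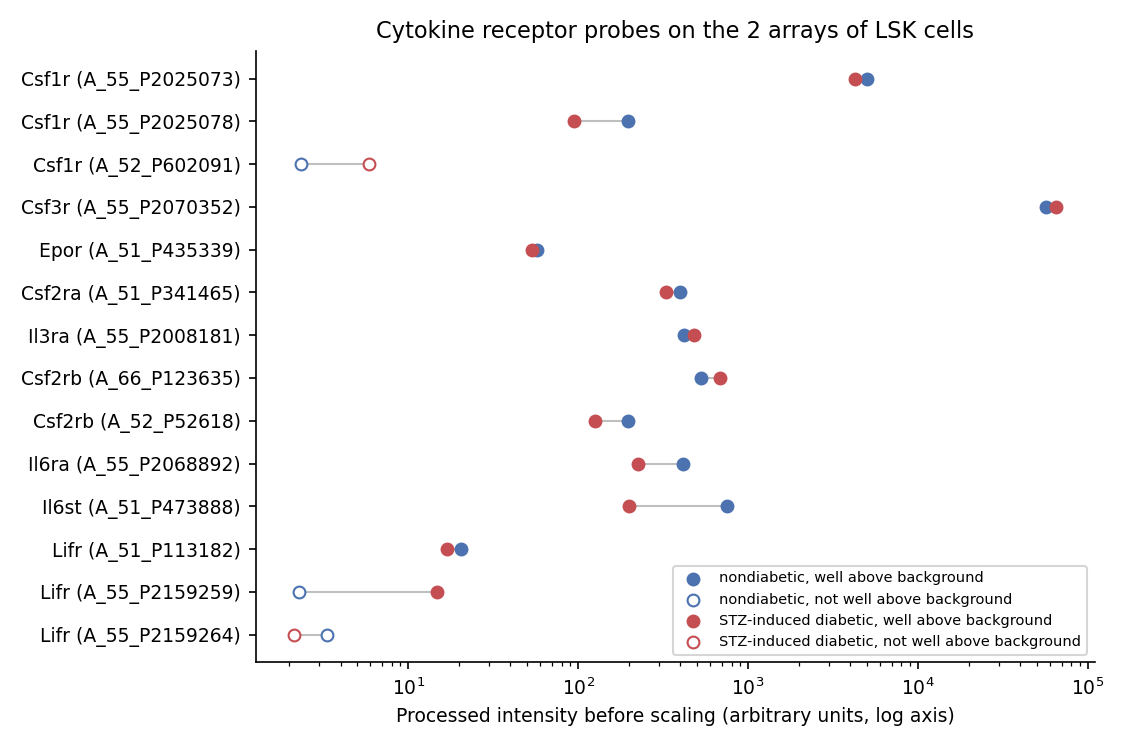
Processed intensity of each of the 14 receptor probes (log axis, arbitrary units, before scaling) on the nondiabetic and the diabetic array, joined by a line, with open circles for spots not well above background. The widest gap between filled circles is that of Il6st, 757 against 199, while the circles of Csf3r, Epor and Il3ra nearly meet.

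Among receptors of the interleukin-6 family, both chains of the interleukin-6 receptor itself had lower signals in diabetic mice. The intensity of Il6st (probe A_51_P473888) was 757 in nondiabetic against 199 in diabetic mice, for a log2 ratio of -2.04 ± 0.20. Il6ra (probe A_55_P2068892), which encodes the chain that binds interleukin-6, had 412 and 224, a log2 ratio of -0.995 ± 0.20 or 1.99-fold lower. Both differences exceed the spot-to-spot SD of bright probes given above, with no measure of the spread between mice to set them against. Lifr, which encodes the chain that joins gp130 to bind leukemia inhibitory factor, was dim. Its brightest probe (A_51_P113182) had 20.4 and 17.0, a log2 ratio of -0.39 ± 0.31. The second Lifr probe (A_55_P2159259) was well above background in diabetic mice alone, at 14.8 against 2.27, which makes it at least 1.34-fold higher. The third (A_55_P2159264) was well above background on neither array, at 3.31 and 2.12. For Lifr the probes therefore point in opposite directions at intensities close to the lowest that counted as well above background, 10.2 and 10.1.

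Set among all probes of like signal, the value of Il6st lies outside the central range and that of Il6ra inside it. With the probes measured on both arrays split by signal into 20 groups of equal size, 0.985% of the 1625 probes in the group of Il6st had a log2 ratio as low or lower, and the 5th percentile of that group was -1.12. In the group of Il6ra 7.94% were as low or lower. For the brighter Csf1r probe, at -0.34, the share in its group was 5.72%, and the 5th percentile was -0.36. Over all 15192 named genes with a value, 387 (2.55%) were as low as Il6st and 1552 (10.2%) as low as Il6ra. The spots around each receptor spot, within 10 rows and columns, had median log2 ratios between -0.06 and 0.09. The value around Il6st was -0.04.

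**Figure D2:**
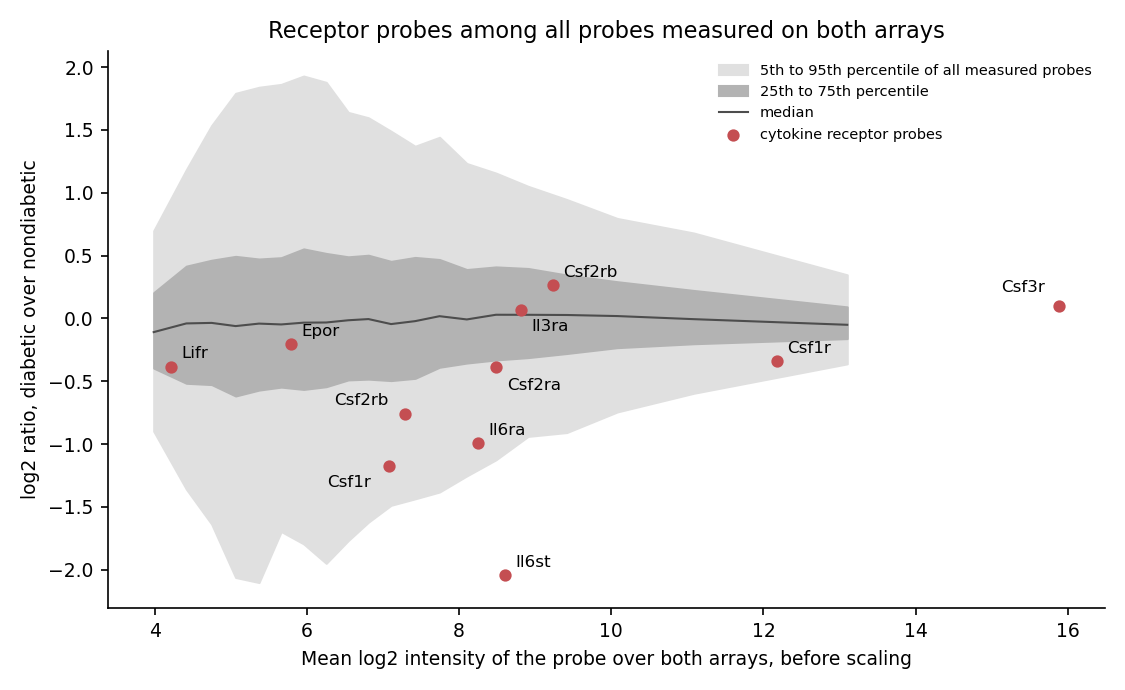
log2 ratio against mean log2 intensity for the 11 receptor probes measured on both arrays (points), over the 5th to 95th and 25th to 75th percentiles of all measured probes in 20 groups by signal (bands, drawn between the median signals of the groups). Il6st at -2.04 lies below the wide band, whereas the brighter Csf1r probe, at -0.34, lies near its lower edge.

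The promoter windows of Il6st and Il6ra are printed because these are the 2 receptor genes with the largest differences, and that of Csf3r because its ratio was close to 0. The windows come from RefSeq on GRCm38.p6 and run from 250 bases before to 50 bases after the annotated start. The table holds windows for 7 of the 9 genes, without Csf1r and Csf2rb. The GC box was searched as GGGCGG, the binding site of NF-Y, known as the CCAAT box, by those letters, a STAT site as TTCNNNGAA, an ETS core as AGGAAGT and the TATA box as TATAAA. Both strands were searched, and matches are in capitals. Il6st lies on the plus strand (chr13:112463820-112464119), Il6ra on the minus strand (chr3:89913147-89913446) and Csf3r on the plus strand (chr4:126024409-126024708), each read 5′ to 3′ along its gene.
Il6st: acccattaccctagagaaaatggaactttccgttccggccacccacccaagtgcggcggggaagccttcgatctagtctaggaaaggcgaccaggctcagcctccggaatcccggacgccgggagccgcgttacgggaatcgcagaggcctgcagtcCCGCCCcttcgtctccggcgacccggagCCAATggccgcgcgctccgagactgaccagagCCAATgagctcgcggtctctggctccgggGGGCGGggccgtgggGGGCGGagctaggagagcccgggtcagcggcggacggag
Il6ra: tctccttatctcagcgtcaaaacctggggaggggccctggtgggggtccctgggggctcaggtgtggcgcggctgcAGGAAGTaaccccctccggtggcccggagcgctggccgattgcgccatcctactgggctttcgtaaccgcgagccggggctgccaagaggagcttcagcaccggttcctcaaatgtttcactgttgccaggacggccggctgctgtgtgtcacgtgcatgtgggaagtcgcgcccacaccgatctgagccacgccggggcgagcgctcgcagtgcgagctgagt
Csf3r: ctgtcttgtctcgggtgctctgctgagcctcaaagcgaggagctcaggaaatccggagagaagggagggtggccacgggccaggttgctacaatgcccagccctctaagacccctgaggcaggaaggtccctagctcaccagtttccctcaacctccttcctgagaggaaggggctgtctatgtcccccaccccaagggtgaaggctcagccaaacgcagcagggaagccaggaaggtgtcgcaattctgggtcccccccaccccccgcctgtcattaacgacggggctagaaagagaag

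The Il6st window held 3 GC boxes and 2 CCAAT boxes and had 68.3% G and C. The Il6ra window held 1 ETS core and no GC box, at 66.0% G and C, and that of Csf3r held none of the 5 motifs, at 60.7%. The median over all 32851 windows was 52.7%. GC boxes occurred in 35.7% of all windows, CCAAT boxes in 37.4%, ETS cores in 9.35%, TATA boxes in 13.6% and STAT sites in 8.30%. A STAT site was found in 0 of the 8 windows of the receptor genes (Lifr has 2). Il6st and Il6ra share none of these motifs, and the ETS core was also found in the window of Il3ra, whose ratio was close to 0. These matches describe the letters of the windows alone.

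The receptors for colony-stimulating factors of single lineages gave small ratios by their brightest probes. Csf3r, the receptor for G-CSF and the main signal for neutrophil output, had the intensities 56358 and 65348 (probe A_55_P2070352), a log2 ratio of 0.10 ± 0.20. Csf1r, the receptor for M-CSF and interleukin-34 that monocytes and macrophages need, had 5003 against 4284 by its brightest probe (A_55_P2025073), a log2 ratio of -0.34 ± 0.20. Its second probe (A_55_P2025078) had 196 and 94.2, a log2 ratio of -1.17 ± 0.21 or 2.26-fold lower. The third Csf1r probe (A_52_P602091) did not clear background on either array, at 2.34 and 5.86. Both measured Csf1r probes thus had the lower signal in diabetic mice, and they differed in size by 0.83. All 3 probes carry the same transcript identifier.

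Values of marker genes for the cells that use these factors stand beside the ratios. Of 7 monocyte and macrophage markers, 6 were well above background on both arrays. Their summed intensity was 34836 and 35396, nearly all of it from Itgam. The log2 ratio of the scaled sums was -0.09. Of the 6 with a value, 3 were above 0 and 3 below, with 1 past 2-fold upwards and 0 downwards. Of 9 granulocyte markers, Ltf was well above background on neither array and Ngp on the nondiabetic array alone. Their summed intensity was 4812 in nondiabetic and 3881 in diabetic mice. After scaling, the log2 ratio of these sums was -0.43. Of the 8 with a value, 3 were above 0 and 5 below, with 0 past 2-fold upwards and 1 downwards. The part of such cells in the ratios of Csf1r and Csf3r was not tested.

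**Figure D3:**
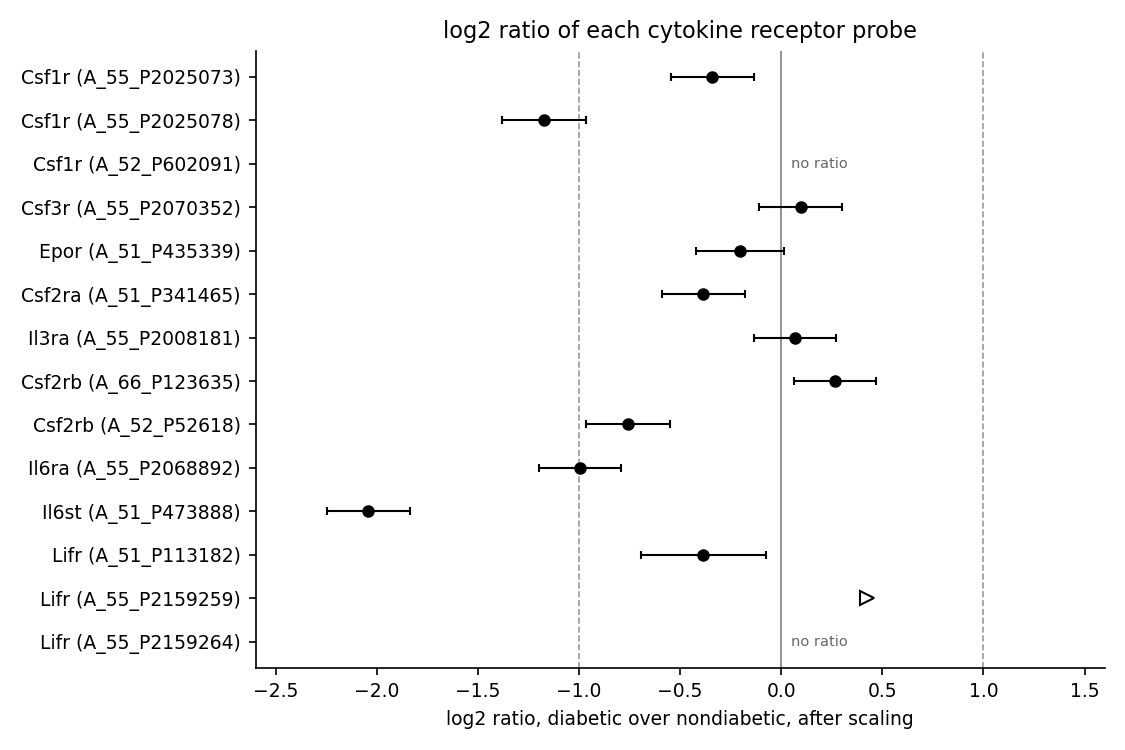
log2 ratio (diabetic over nondiabetic, after scaling) of each receptor probe, with bars for the error of the software's error model, an open triangle for a lower bound, and dashed lines at 2-fold. Of the 14 probes, Il6st at -2.04 and the second Csf1r probe at -1.17 lie beyond the left dashed line and 0 lie beyond the right one.

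By single probes, 2 of the 12 with a ratio or bound were at least 2-fold lower and 0 at least 2-fold higher, beside 11.2% in each direction over 37791 probes. Only Csf1r and Csf2rb had 2 probes measured on both arrays. Over 2816 transcripts with at least 2 such probes, the median distance between the log2 ratios of the 2 brightest was 0.54 and 44.0% had opposite signs. A distance as large as in Csf1r was found in 36.4% of these transcripts and one as large as in Csf2rb, 1.03, in 29.5%.

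The chains of the GM-CSF and interleukin-3 receptors differed little by their brightest probes. Csf2ra, which encodes the alpha chain that binds GM-CSF, had 395 against 328 (probe A_51_P341465), a log2 ratio of -0.39 ± 0.20. Il3ra, the alpha chain for interleukin-3, had 420.4 and 478 (probe A_55_P2008181), a log2 ratio of 0.07 ± 0.20. For the common beta chain, the brighter Csf2rb probe (A_66_P123635) had 527 and 687, a log2 ratio of 0.27 ± 0.20, and the other (A_52_P52618) had 196 and 125, a log2 ratio of -0.76 ± 0.21. The 2 probes of Csf2rb carry the same transcript identifier and gave opposite signs, so the direction of Csf2rb depends on the probe. Csf2rb2 is a near copy of Csf2rb in mice and encodes a beta chain specific to interleukin-3. Its probes were dim, with 21.4 and 22.8 for one (A_51_P146753, a log2 ratio of -0.02 ± 0.32) and 27.5 in nondiabetic mice against 8.08, not well above background, in diabetic mice for the other (A_55_P2034663), which is at least 2.97-fold lower. Without probe sequences in the files, cross-hybridization between the 2 copies was not tested.

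Epor, the receptor that erythroid progenitors need to survive, had 57.0 against 53.8 (probe A_51_P435339), a log2 ratio of -0.20 ± 0.22. Of 8 erythroid markers, 7 were well above background on both arrays, with a summed intensity of 3690 and 7814. After scaling the log2 ratio of these sums was 0.97, with Hba-a1, an alpha globin gene, at 1984 and 4967 and Slc4a1, the anion exchanger of red cells, at 124 and 529. Of the 7 with a value, 4 were above 0 and 3 below, with 2 past 2-fold upwards and 0 downwards, and their median was 0.14. Those below 0 were the 2 erythroid transcription factor genes, with log2 ratios of -0.59 for Gata1 and -0.30 for Klf1, and Car1 at -0.24. The part of erythroid cells in the ratio of Epor was not tested.

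The other genes of these pathways were grouped as further receptor chains, ligands and signalling proteins, 65 genes in all with no overlap with the 9 receptors. Of 50 with a value, 4 were at least 2-fold higher in diabetic mice and 6 at least 2-fold lower, again beside 11.0% and 10.1% of all named genes, and their median log2 ratio was -0.04. Under normexp background correction, which draws dim probes towards a ratio of 1, these counts were 1 (Ebi3) and 3 (Il12rb2, Il27ra and Il2rb). In the authors' table, Sh2b3 stopped short of the limit and 3 were higher.

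Of 26 further receptor chains, 22 had a value, 2 of them at least 2-fold higher and 3 lower, beside 11.0% and 10.1% of all named genes. Il27ra, which pairs with gp130 to form the receptor for interleukin-27, had 105 in nondiabetic mice against 3.94, which did not clear background, in diabetic mice (probe A_51_P183912). It is at least 11.4-fold lower, a log2 bound of -3.50 that became a bound of -1.37 under normexp. Il12rb2, the signalling chain of the interleukin-12 receptor and a structural relative of gp130, had 509 and 153 (probe A_55_P1970489), a log2 ratio of -1.85 ± 0.21, and its other probe gave -0.98. Il12rb1, its partner, had 115 and 65.5, a log2 ratio of -0.93. Il2rb, the beta chain for interleukin-2 and interleukin-15, had 286 and 22.9 (probe A_51_P286496), which is 13.6-fold lower, a log2 ratio of -3.76 that became -2.22 under normexp.

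These chains serve mainly lymphocytes in the adult. Of 6 T and NK cell markers, Cd3e, Cd4 and Nkg7 were well above background on both arrays and Cd8a on neither. Cd3g, with 25.4 and 2.11, cleared background in nondiabetic mice alone, and Klrb1c, with 10.9 and 15.9, in diabetic mice alone. Their summed intensity was 4547 in nondiabetic and 3825 in diabetic mice, most of it from Nkg7 at 3291 and 2582.5. After scaling, the log2 ratio of these sums was -0.37. Of the 5 with a value, 1 was above 0 and 4 below, with 0 past 2-fold upwards and 1 downwards. The part of such cells in the ratios of Il2rb, Il12rb2 and Il27ra was not tested.

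In the other direction, Ebi3, which encodes the soluble receptor-like subunit of interleukin-27, had 269 and 719 (probe A_51_P202633), which is 2.47-fold higher. Il7r, the receptor chain that lymphoid progenitors depend on, had 43.6 and 98.8 (probe A_51_P196695), a log2 ratio of 1.06 ± 0.22 that became 0.57 under normexp. Of 6 B cell markers, 5 were well above background on both arrays and Ms4a1 on neither. Their summed intensity was 744 and 1104, a log2 ratio of the scaled sums of 0.45, with 4 of the 5 above 0 and 1 at least 2-fold higher. The part of B cells in the ratio of Il7r was not tested. Among the further partners of gp130, Il11ra1 had a log2 ratio of 0.04 and Cntfr one of -0.06, while Osmr was well above background on neither array. Il5ra, the alpha chain that shares the common beta chain, had -0.35. The stem cell receptors Kit and Flt3 had -0.09 and 0.19.

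**Figure D4:**
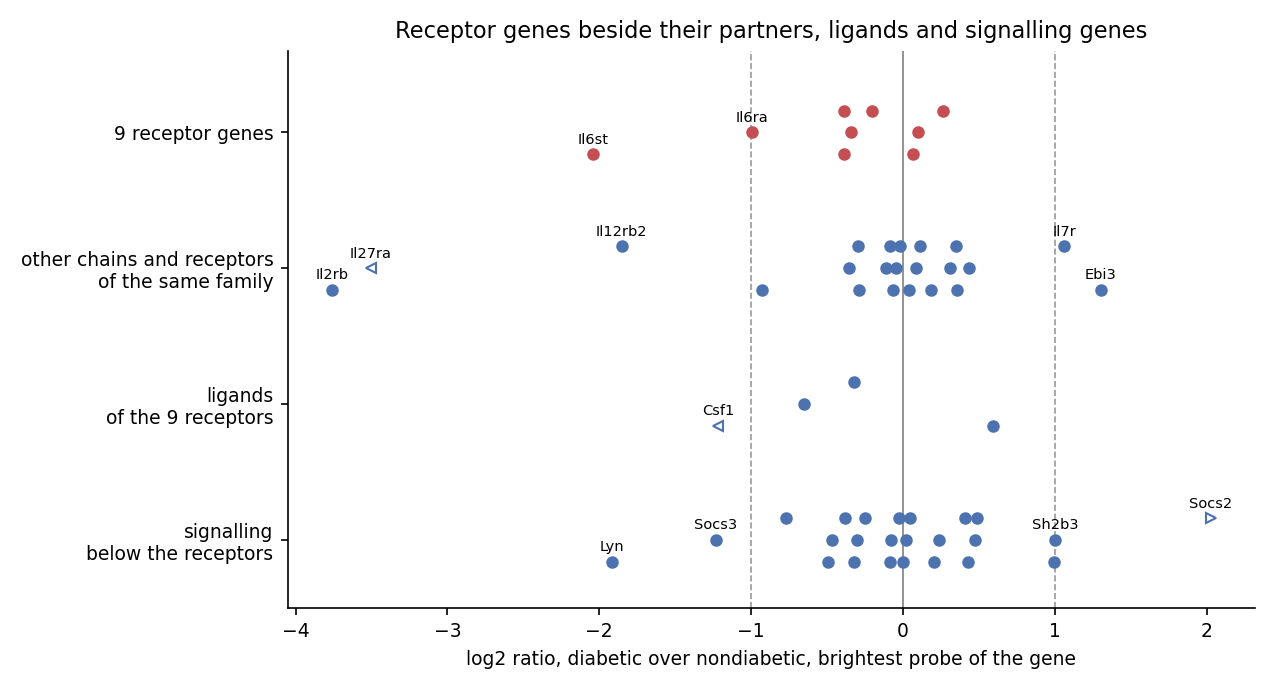
log2 ratio (diabetic over nondiabetic, brightest probe) of the 9 receptor genes and of the genes with a value in 3 lists: further receptor chains, ligands and signalling genes. Open triangles are bounds, dashed lines mark 2-fold, points are spread vertically for legibility, and the genes past 2-fold are named along with Il6ra. Il2rb, Il27ra, Il6st, Lyn and Il12rb2 lie farthest to the left.

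The ligands of these receptors were mostly not detected in LSK cells. Of 14 ligand genes, 10 had no ratio, among them Il6, Csf2, Csf3, Epo, Il3 and Lif, which were well above background on neither array. Il6 had 2.44 in nondiabetic and 2.42 in diabetic mice, near the median of 308 negative control spots, 2.35 and 2.32. Csf1, the ligand of Csf1r, was well above background in nondiabetic mice alone, at 21.6 against 9.15 (probe A_51_P195506), which is at least 2.33-fold lower, and its other 2 probes were well above background on neither array. Under normexp the log2 bound of Csf1 was -0.29. Cntf had a log2 ratio of 0.60, Clcf1 one of -0.32 and Il11 one of -0.65.

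Of 25 signalling genes, 24 had a value, 2 at least 2-fold higher and 2 lower. Over all named genes these shares were 11.0% and 10.1%, so the counts are near the background. Socs3, the feedback inhibitor that binds gp130 and the G-CSF receptor, had 68.1 against 31.4 (probe A_51_P474459), a log2 ratio of -1.23 ± 0.24. Lyn, a Src-family kinase that acts below several of these receptors, had 92.7 and 26.6 (probe A_55_P1958088), a log2 ratio of -1.92 ± 0.23. Socs2, which restrains STAT5 signalling, was well above background in diabetic mice alone, at 45.2 against 2.24 (probe A_55_P1992834), which is at least 4.08-fold higher. Sh2b3, the adaptor that restrains Jak2, had 40.4 and 87.9 (probe A_66_P109673), a log2 ratio of 1.01 ± 0.23, and 2.73 by its other probe. With the authors' table the first Sh2b3 value was 0.993, just under the 2-fold limit. The other 2 Socs2 probes were dimmer, with a bound of 0.41 on the log2 scale for one and no ratio for the other. Under normexp, which ended the 2-fold call of all 4 genes, the log2 ratios were -0.45 for Socs3, -0.95 for Lyn and 0.50 for Sh2b3. The bound of Socs2 was 0.65.

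Of the Janus kinases and STAT proteins that the receptors share, those given here lay under 2-fold. Jak1 had a log2 ratio of 0.41 and Jak2 one of 0.49, while Tyk2 was well above background on neither array. Stat3, which acts below gp130 and Csf3r, had 5070 and 5212, a log2 ratio of -0.08, and Stat5a and Stat5b had -0.08 and 0.43.

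Under the 9 alternatives run, Il6st lay between -2.07 and -1.71, but not all of them could change its value. Il6st has 1 probe, well above background on both arrays. Keeping or dropping dim probes, the floor and averaging over probes therefore return its reported ratio by design. Median centring and the authors' table only shift all ratios by a constant. In the rest, Il6st was -2.06 under quantile normalization, -2.07 under loess and -1.71 under normexp. Il6ra lay between -1.02 and -0.89. It passed 2-fold under quantile normalization, loess and the authors' table, and not under median centring or normexp. Like Il6st, Il6ra has 1 probe well above background on both arrays, so the remaining alternatives return its reported value by design. Averaging the probes of a gene turned Csf2rb from 0.27 to -0.25, took Csf1r from -0.34 to -0.76 and brought Lifr to 0.02.

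**Figure D5:**
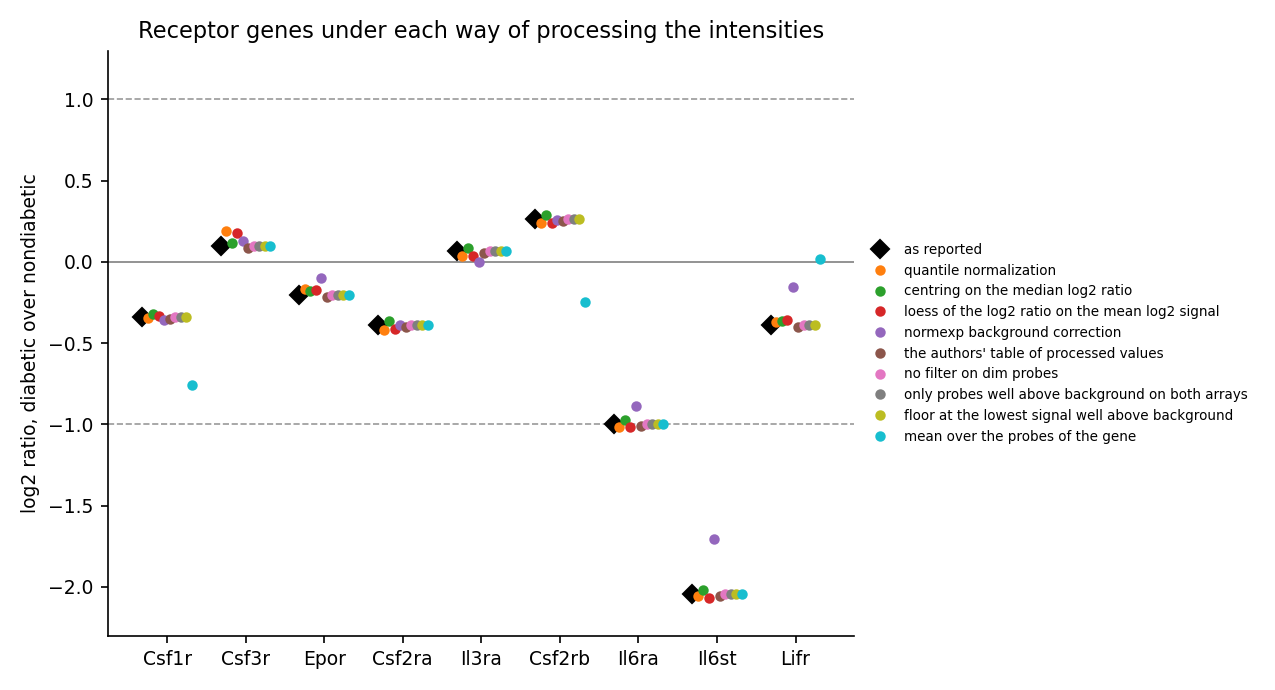
log2 ratio (diabetic over nondiabetic) of each receptor gene as reported (diamonds) and under 9 alternatives (circles), with dashed lines at 2-fold. Il6st stays between -2.07 and -1.71, Il6ra straddles the dashed line, and the mean over probes moves Csf1r, Csf2rb and Lifr.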

How the data were processed

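RNA of LSK cells was amplified, labelled with Cy3 and hybridized to 1-colour Agilent arrays, with 1 array per condition on 1 platform design. The authors deposited scanner files written by Agilent Feature Extraction 11.5.1.1, whose processed intensity is corrected for background within the array and not normalized between arrays, together with a table of processed values. In that table each column is the processed intensity times 1 constant (log2 factors of 3.48 for nondiabetic and 3.35 for diabetic). The array grid refers to mm9, and no array coordinates were used.

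The deposited intensity was converted to log2 and centred on the 75th percentile of the non-control spots of its array. Outlier spots by the software's flags were dropped from both arrays, 0 of them for the receptor probes. A probe not well above background on 1 array has a bound, taken against the higher of its own value and that array's lowest value well above background (intensities of 10.2 and 10.1). A probe that cleared background on neither array, or whose bound would turn the direction, has no ratio. Transcript identifiers were matched without versions to a RefSeq table of GRCm38.p6, which named 53.7% of non-control spots. A gene is represented by its brightest probe, by mean log2 signal over both arrays. The limit for description was 2-fold. The error of a log2 ratio was propagated from the deposited intensity error of the software's error model.

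The receptor genes and the other gene lists were chosen with earlier results of these data known. All 9 receptor genes were to be named, with Csf2rb2 and, from each pathway list, the genes past 2-fold. Other genes named below 2-fold, and the single marker genes, were chosen after their values were seen. Some genes of the lists are not reported here. No genes of like pattern are named, since 2 arrays give no pattern to match. The alternatives were loess, quantile normalization, median centring of the ratios, normexp (offset 50) run on median spot signals, the authors' table, keeping all dim probes, dropping every probe dim on an array, a floor, and the mean over a gene's probes. The scaling, ratio and count steps were tested on simulated arrays with known changes placed in brighter probes only. Changes in dim probes were not simulated, and the simulated noise was the same at every signal. The number of arrays limits the precision. Python 3.11.15 with numpy 2.4.6 and pandas 2.3.3, and R 4.3.3 with limma 3.58.1, were used.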

Additional observations from a re-analysis of the deposited data

How the results depend on the processing

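No paired analysis was possible because only 1 array stands for a condition, and for that reason no replicate could be left out. Receptor genes at least 2-fold lower numbered 2 under quantile normalization, 2 under loess and 2 with the authors' table (1 as reported), since Il6ra lies at the limit. Under normexp, whose offset of 50 shrinks log2 ratios at low signal, the median of the receptor genes was -0.15 (-0.34 as reported), receptor probes at least 2-fold lower numbered 1 (2 as reported), and other pathway genes at least 2-fold higher and lower numbered 1 and 3 (4 and 6 as reported). With no filter on dim probes, 2 receptor probes were at least 2-fold higher (0 as reported), the third Csf1r probe and the second Lifr probe, neither of them well above background in nondiabetic mice. Over all probes, 4215 were past 2-fold upwards and 4235 downwards as reported, 1243 and 1259 under normexp, 6482 and 6424 with no filter, and 2914 and 2965 when a probe had to clear background on each array. The floor took the median over all named genes from 0.02 to -0.14. Of the genes and receptor probes past 2-fold as reported, 0 changed sign under the alternatives run, whereas Csf2rb and Lifr, both under 2-fold, did with the mean over probes. Signal over background limits Lifr and the ligand genes most. Normexp was run on the median spot signal because the files used here give no mean spot signal.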
